A study of Sus scrofa with 12 samples.

Results

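Collagen chain transcripts were followed in porcine aortic valvular interstitial cells, which are fibroblasts that build and maintain the matrix of the heart valve leaflet. The 6 genes were COL3A1, COL5A1, COL5A3, COL7A1, COL8A1 and COL15A1, and every probe set annotated with exactly 1 of these symbols was taken. The rule gave 16 probe sets of 23999 on the array: 6 for COL5A1, 4 for COL8A1, 3 for COL5A3 and 1 each for COL3A1, COL7A1 and COL15A1. Probe sets of the same gene share their target and are not separate replicates of it.

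The 12 Affymetrix arrays formed 4 groups of 3 biological replicates, all from adult pig aortic valves digested with collagenase II, with no strain or further age given. P2 cells given porcine TGF-β1 at 5 ng/ml had gone through 2 passages on culture plastic, were held in low-serum medium and had had 8 h or 24 h of the cytokine when they were collected. P2 untreated cells had the same culture, the same low serum and no added cytokine. P0 cells were taken straight after isolation and were never cultured, so P0 and P2 cells differ in passage, plastic and serum at once, and these cannot be told apart. Whether a replicate came from 1 animal or from several is not given in the sources used here. A p-value sets a difference between groups against the spread between these replicates. TGF-β1 is a cytokine known to turn fibroblasts into contractile, matrix-producing myofibroblasts.

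A collagen is a trimer of chains wound into a triple helix. COL3A1 and the type V chains COL5A1 and COL5A3 enter the banded fibrils that carry tension, and type V collagen is known to start those fibrils and to limit their width. COL7A1 forms the anchoring fibrils below epithelial basement membranes, COL8A1 forms short-chain networks and is made by vascular and valve cells, and COL15A1 is a proteoglycan-bearing collagen at the border between basement membranes and the underlying fibrils.

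Each probe set has 1 log2 expression value per array, and fold changes come from limma with an adjusted p (Benjamini-Hochberg over 17638 probe sets over log2 4 in at least 3 arrays). Errors beside a log2 fold change are standard errors, with 3 arrays in each group, and a call needs an adjusted p under 0.05. The array carries 64 reporter controls, and their 95th percentile was 4.58. A fold against a group mean below that level is written as at least that large, and no fold is printed where both means lay below it. The level of a probe set depends on its own probes, so levels are compared between groups and never between probe sets. Array medians lay within 0.0734 of each other. VIM, a mesenchymal marker, read 15.44 to 15.65 in all 12 arrays. It does not stand for the other interstitial markers. Of 11 tested, 4 were higher and 5 lower in P2 untreated than in P0 cells (59.4% of all tested probe sets called). The TGF-β target PMEPA1 read 13.39, 13.43 and 13.73 at 8 h and 13.63, 13.43 and 13.67 at 24 h. It read 10.86, 11.53 and 10.24 in untreated cells and 13.13, 13.23 and 13.03 in P0 cells. Untreated cells were thus also lower than P0 cells (-2.25, limma adjusted p = 7.77e-06). The difference at 24 h over P0 was not called (0.45). P2 arrays with the same replicate number deviated together from their group means (correlations of 0.348 to 0.679), so a fit of the P2 arrays with the number as a block is given wherever it changed the call of a collagen chain probe set.

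Of the 16 probe sets, 10 had a mean over all 12 arrays above the control level, and the counts that follow are over these 10. The genes, and the lists given later, were chosen with earlier results of these data known. The shares over all tested probe sets beside their counts are therefore descriptions and not tests. At 24 h of TGF-β1, 4 of the 10 were higher and 1 was lower than in untreated cells, where 8.49% of all tested probe sets were called, 4.27% as higher and 4.22% as lower. Those that rose were 3 of COL5A1 and 1 of COL8A1, and the 1 that fell was COL3A1. The groups did not overlap in 6 of the 10, against 25.3% of all tested probe sets, and the median log2 fold change was 0.59, against 0.01 over all tested probe sets. At 8 h 1 probe set, of COL5A1, was higher than in untreated cells and none was lower, where 5.07% of all were called, 2.53% in each direction. The groups did not overlap in 2 of the 10 (25.5% of all), and the median log2 fold change was 0.24, against -0.01 over all.

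In P2 untreated cells, 3 of the 10, all of COL8A1, were higher than in P0 cells and 4 were lower, where 59.4% of all tested probe sets were called, 33.6% as higher and 25.8% as lower. The 4 that fell were 1 each of COL5A1, COL5A3, COL7A1 and COL15A1. The groups did not overlap in 7 of the 10 (65.1% of all), and the median was -0.10, against 0.07. At 24 h of TGF-β1, 6 of the 10 were higher and 4 were lower than in P0 cells, where 62.5% of all were called, 35.6% as higher and 26.9% as lower. For the 24 h arrays against the P0 arrays the groups did not overlap in any of the 10 (65.6% of all), with a median of 0.62, against 0.08. Both counts against P0 thus stand in a comparison where most of the array was called. COL7A1 is among the 10 by a narrow margin (mean 4.593 against a control level of 4.584), and its P0 arrays were its highest. Its part in the counts against P0 therefore follows in part from how the 10 were chosen. The 3 comparisons that use untreated arrays share those 3 arrays. The 6 dim probe sets are described with their genes, including those called at levels near the controls.

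**Figure D1:**
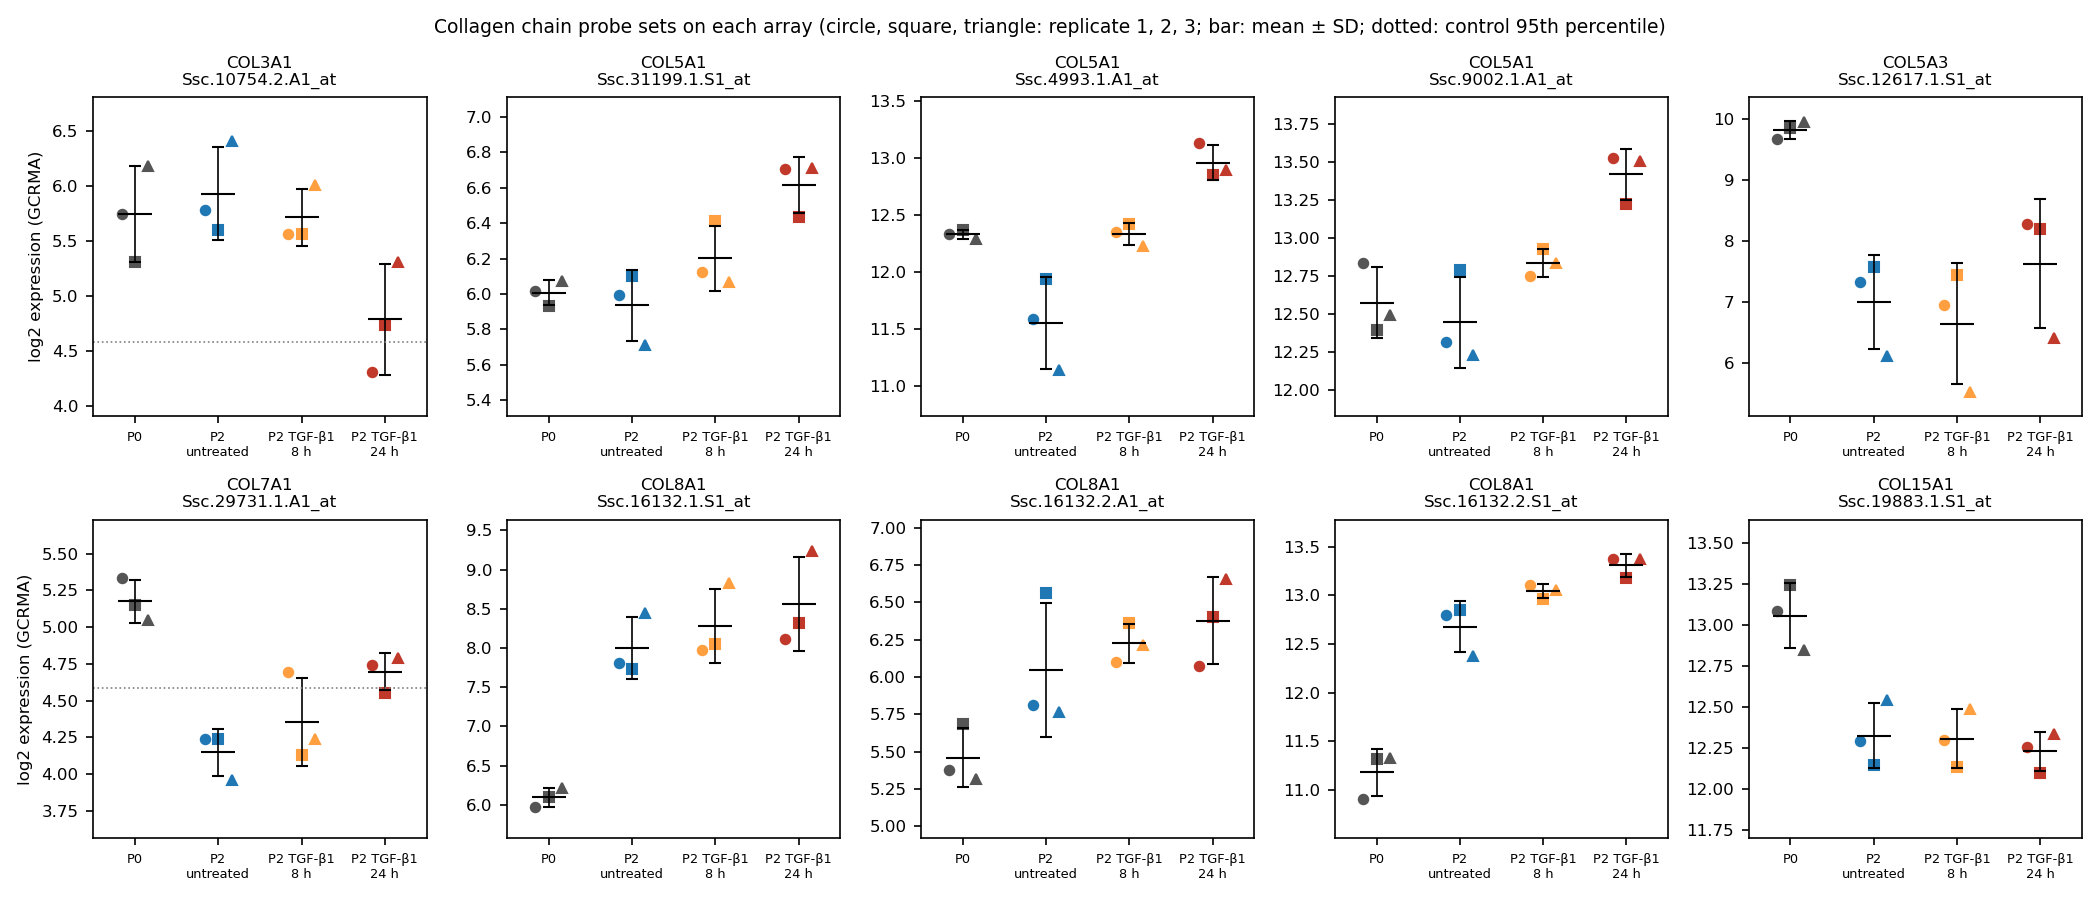
Log2 expression (vertical axis, its range set for each panel) of the 10 collagen chain probe sets whose mean over 12 arrays lies above the reporter controls. Points are single arrays (marker shape gives the replicate number), bars are group means ± SD (n = 3) and the dotted line is the controls' 95th percentile. COL5A1 is highest at 24 h, COL8A1 is higher in all P2 groups than in P0, and COL5A3 is highest in P0.

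COL5A1 encodes the α1 chain found in nearly all type V collagen. Its 3 probe sets above the controls rose together at 24 h of TGF-β1. Probe set Ssc.4993.1.A1_at read 13.13, 12.85 and 12.89 at 24 h, against 11.59, 11.94 and 11.14 in untreated cells. Probe set Ssc.9002.1.A1_at read 13.53, 13.23 and 13.51 at 24 h, against 12.32, 12.79 and 12.23. Probe set Ssc.31199.1.S1_at read 6.71, 6.43 and 6.71 at 24 h, against 5.99, 6.10 and 5.71. In each of the 3, every treated array lay above every untreated array. The log2 fold changes were 1.40 ± 0.171 (adjusted p = 0.000658), 0.97 ± 0.166 (adjusted p = 0.0043) and 0.68 ± 0.138 (adjusted p = 0.0105) in that order, or 2.65-fold, 1.97-fold and 1.60-fold. Each was called whichever single array was left out. Without the 3 P2 arrays numbered 3, the first stayed called (1.23, adjusted p = 0.00337), while Ssc.9002.1.A1_at (0.82, adjusted p = 0.0639) and Ssc.31199.1.S1_at (0.52, adjusted p = 0.0976) did not.

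At 8 h 1 COL5A1 probe set was called. Ssc.4993.1.A1_at read 12.35, 12.42 and 12.23 at 8 h, all above the 3 untreated arrays given above. Its log2 fold change was 0.78 ± 0.171 (1.71-fold, adjusted p = 0.0239). That call was lost when any 1 of 5 arrays was left out: untreated 1 (adjusted p = 0.0651), untreated 3 (0.0692), or TGF-β1 8 h 1 (0.0832), 2 (0.0853) or 3 (0.0537). It was also lost without the 3 P2 arrays numbered 3 (0.62, adjusted p = 0.101). Ssc.9002.1.A1_at read 12.75, 12.93 and 12.84 at 8 h, which overlaps the untreated arrays, with a log2 fold change of 0.39 (adjusted p = 0.245). Between 24 h and 8 h no COL5A1 probe set passed the test, although in these 3 probe sets every 24 h array lay above every 8 h array. The differences were 0.63 for Ssc.4993.1.A1_at (adjusted p = 0.233), 0.58 for Ssc.9002.1.A1_at (0.258) and 0.42 for Ssc.31199.1.S1_at (0.347).

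Of these 3 COL5A1 probe sets, 1 was called between untreated and P0 cells. Ssc.4993.1.A1_at averaged 11.56 ± 0.40 in untreated cells and 12.33 ± 0.04 in P0 cells (SD, n = 3 each), a log2 fold change of -0.77 ± 0.171 (1.71-fold lower, adjusted p = 0.00194). Ssc.9002.1.A1_at averaged 12.45 ± 0.30 in untreated cells and 12.58 ± 0.23 in P0 cells, with overlapping arrays and a log2 fold change of -0.13 (95% interval -0.49 to 0.23, adjusted p = 0.528). Ssc.31199.1.S1_at differed by -0.07 (adjusted p = 0.682). The 3 did rise together at 24 h relative to P0 cells, by 0.63 (adjusted p = 0.00679), 0.85 (adjusted p = 0.000758) and 0.61 (adjusted p = 0.00206) in the order given first.

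The other COL5A1 probe sets lay in the range of the controls. Ssc.16329.1.S1_at read 4.05, 4.55 and 4.52 at 24 h, against 3.82, 3.92 and 3.53 in untreated cells. It was called (adjusted p = 0.0281), but both means lie below the control level, so no fold is given, and it passed the filter only through its 24 h arrays. The call was lost without untreated 1 (adjusted p = 0.0633), untreated 3 (0.119), 24 h 2 (0.0893) or 24 h 3 (0.0818). Ssc.18545.1.A1_at ran from 3.71 to 4.30 over the 12 arrays and was called in no comparison. Ssc.16329.1.A1_at ran from 3.88 to 4.16 and was the 1 collagen chain probe set that failed the filter.

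COL5A3 encodes the α3 chain of type V collagen. Its probe set Ssc.12617.1.S1_at was far lower in all P2 groups than in P0 cells, and in every P2 group it was lowest in the array numbered 3. It read 9.67, 9.86 and 9.96 in P0 cells and 7.32, 7.57 and 6.12 in untreated P2 cells. With TGF-β1 it read 6.96, 7.45 and 5.53 at 8 h and 8.29, 8.20 and 6.42 at 24 h. No P2 array reached the lowest P0 array, and in each P2 group the array numbered 3 lay over 1 log2 unit below the others.

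The log2 fold change of untreated over P0 was -2.82 ± 0.563, or 7.08-fold lower (adjusted p = 0.000928). At 24 h over P0 it was -2.20 ± 0.563, or 4.58-fold lower (adjusted p = 0.00468). Without the 3 P2 arrays numbered 3 these were -2.38 (adjusted p = 3.25e-06) and -1.59 (adjusted p = 3.66e-05). Within P2 the change at 24 h over untreated was 0.63 ± 0.563 (adjusted p = 0.577) without the block and 0.022 as its adjusted p with the replicate number as a block. Without the arrays numbered 3 it was 0.79 (adjusted p = 0.0484). Within each replicate number the 24 h array read above the untreated array. The 24 h over 8 h difference was 0.99 ± 0.563 (adjusted p = 0.653), and its adjusted p with the block was 0.0217. At 8 h over untreated it was -0.36 ± 0.563 (adjusted p = 0.834).

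A second COL5A3 probe set was dim but ran the same way in culture. Ssc.16327.1.S1_at read 4.26, 4.18 and 4.26 in untreated cells, against 5.11, 4.70 and 5.13 in P0 cells. Untreated cells were thus at least 1.32-fold lower (adjusted p = 0.0225), with no overlap, although the call was lost without P0 1 (adjusted p = 0.0698), P0 3 (0.0705) or untreated 2 (0.0572). At 24 h it read 4.68, 4.82 and 3.65, again lowest in the array numbered 3, and the comparison with P0 was not called (adjusted p = 0.0569). Ssc.16327.1.A1_at stayed between 3.96 and 4.51 in all arrays and was called nowhere.

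Of 14 endothelial markers measured, 9 were, like COL5A3, lowest in the array numbered 3 in every P2 group, and 5 were not. The share of all tested probe sets with that order was not counted. CDH5, an adhesion protein of endothelial junctions, read 9.97, 10.71 and 6.81 at 8 h and 9.80, 10.18 and 6.85 at 24 h, against 9.96, 10.79 and 6.72 in untreated cells, so that it too was lowest in the arrays numbered 3. PECAM1, which joins endothelial cells to each other, read 9.92, 10.29 and 7.78 at 8 h and 8.88, 9.29 and 7.17 at 24 h, against 10.54, 10.93 and 8.67 in untreated cells. It was lower at 24 h than untreated within every number (-1.60, adjusted p = 0.223; 0.00018 with the replicate block), where COL5A3 was higher. The transcription factor ERG, named after its values were seen, read 9.60, 9.37 and 9.59 at 8 h and 10.00, 9.58 and 10.13 at 24 h. In untreated cells it read 8.67, 8.87 and 7.71, lowest in the array numbered 3. It was among the 5 markers not lowest in that array in every P2 group. In P0 arrays, where COL5A3 was highest, CDH5 read 7.93, 7.94 and 8.00, between the low and the high P2 arrays. The log2 of the summed level of the 14 endothelial markers was 10.61 at 8 h, 10.76 at 24 h and 10.18 untreated in those 3 arrays, against 11.76 to 12.59 in the other 6 P2 arrays and 11.72 to 12.10 in P0 arrays. VWF and KDR lay in the control range in all groups, and LYVE1 and SELE in all P2 groups. With ERG these made up the 5 not lowest in the array numbered 3 in every P2 group. Means in the control range could not show that order. Between P2 untreated and P0 cells 3 of 13 tested endothelial markers were lower and none was higher (59.4% of all called). Without the 3 P2 arrays numbered 3 there were 6 higher and 3 lower, among them CDH5 (2.42 higher, adjusted p = 5.24e-05). At 24 h over untreated 1 was higher and none was lower (8.49% of all called). The replicate block gave 1 higher and 4 lower.

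Macrophage markers moved with the step from P0 to P2. Of 12 tested, 11 were lower in untreated P2 cells than in P0 cells, where 25.8% of all tested probe sets were called lower. The log2 of the summed level of the 12 was 10.36 to 11.47 in untreated cells and 13.65 to 14.25 in P0 cells. CD163, a macrophage scavenger receptor, ran from 3.94 to 6.17 over P2 arrays and from 10.57 to 11.25 over P0 arrays. The part of endothelial and macrophage markers in the collagen results was not tested. In bulk samples such as these, fewer cells of a type and less RNA per cell cannot be told apart.

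**Figure D2:**
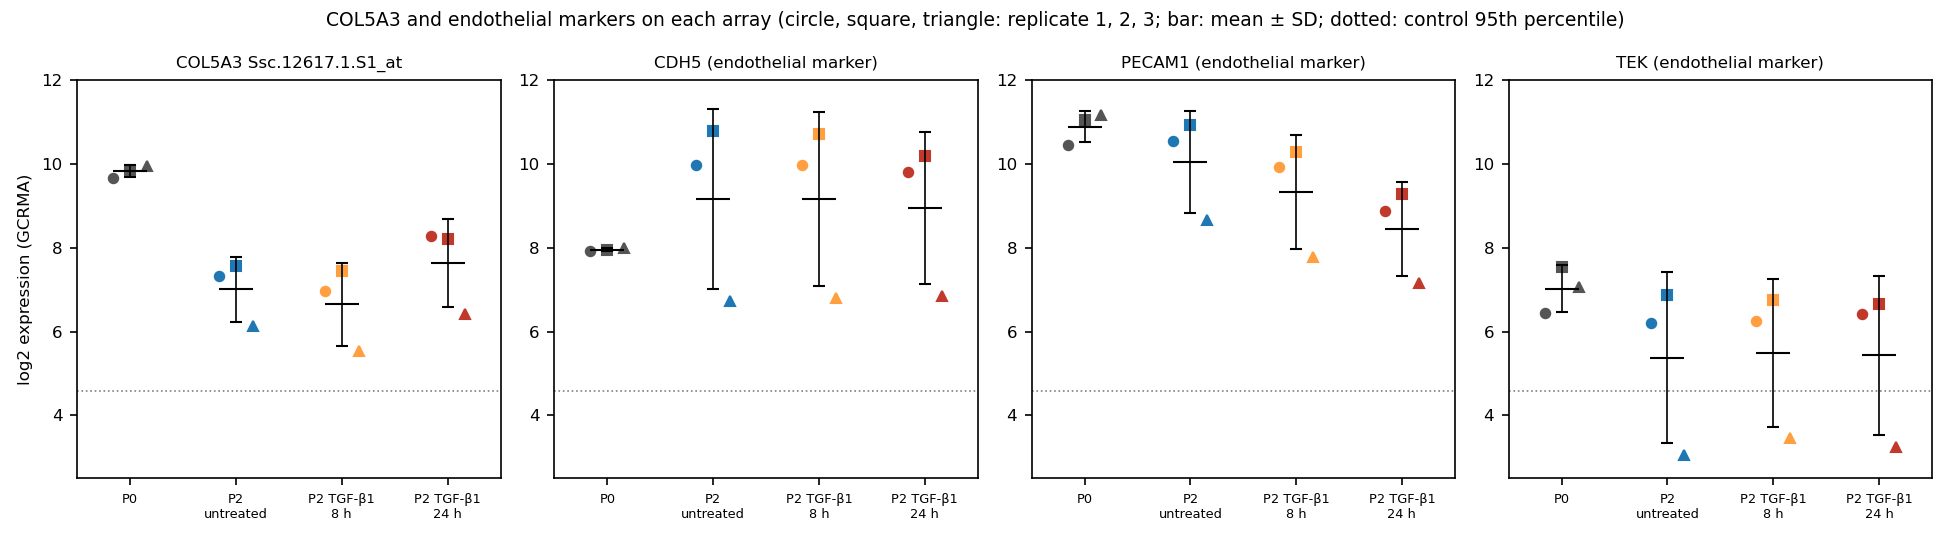
Log2 expression (vertical axis) in each of the 12 arrays of COL5A3 (Ssc.12617.1.S1_at) and of the endothelial markers CDH5, PECAM1 and TEK, by group; marker shape gives the replicate number, bars are means ± SD (n = 3) and the dotted line is the controls' 95th percentile. In all 3 P2 groups the array numbered 3 reads lowest for the 4 genes, while COL5A3 reads 9.67 to 9.96 in P0.

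COL3A1 encodes the single chain of type III collagen, the fibrillar collagen of distensible tissues. Its 1 probe set, Ssc.10754.2.A1_at, read 4.31, 4.74 and 5.31 at 24 h of TGF-β1, against 5.79, 5.60 and 6.41 in untreated cells. Every 24 h array was below every untreated array, while within both groups the array numbered 3 was the highest. The log2 fold change was -1.14 ± 0.292, or 2.21-fold lower (adjusted p = 0.0329), and with the replicate block the adjusted p was 0.00157. The 24 h mean of 4.79 lay close to the control level of 4.58, and the array 24 h 1 lay below that level. Without the block the call was lost when untreated 1 (adjusted p = 0.0678), untreated 3 (-0.90, 0.133), 24 h 1 (-0.90, 0.114) or 24 h 2 (0.083) was left out. It was kept without the 3 P2 arrays numbered 3 (-1.17, adjusted p = 0.0372).

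At 8 h COL3A1 read 5.57, 5.57 and 6.01, overlapping the untreated arrays, and was not called (-0.21, adjusted p = 0.802). The 24 h arrays all lay below the 8 h arrays. That difference was -0.93 ± 0.292 (adjusted p = 0.322), and its adjusted p with the replicate block was 0.0213. Untreated cells averaged 5.93 ± 0.42 and P0 cells 5.75 ± 0.43 (SD, n = 3 each), with a log2 fold change of 0.18 (95% interval -0.45 to 0.82, adjusted p = 0.614). Relative to P0 cells COL3A1 was lower at 24 h by -0.96 on the log2 scale (adjusted p = 0.0126), a call lost without P0 3 (adjusted p = 0.0579) or 24 h 1 (0.0597). This probe set is the only one that stands for COL3A1 here, and its values lie in the low part of the array's range of 1.74 to 15.95. Whether it reports the main COL3A1 transcript could not be checked.

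COL7A1 encodes the chain of type VII collagen. Its probe set Ssc.29731.1.A1_at was low in every group. It read 4.24, 4.24 and 3.96 in untreated cells, against 5.33, 5.15 and 5.04 in P0 cells. The groups did not overlap, and untreated cells were at least 1.51-fold lower (log2 fold change -1.03 ± 0.156, adjusted p = 0.000116), since their mean lay below the control level.

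With TGF-β1 COL7A1 read 4.69, 4.13 and 4.24 at 8 h and 4.74, 4.55 and 4.79 at 24 h. All 24 h arrays were above the untreated arrays and below the P0 arrays. The difference at 24 h over untreated missed the threshold (0.55 ± 0.156, adjusted p = 0.0515) and was called with the replicate block (adjusted p = 0.0287) or with median-centred arrays (0.0389), with a bound of at least 1.08-fold. At 24 h it was 1.39-fold lower than in P0 cells (-0.48, adjusted p = 0.018), a call lost without P0 1 (adjusted p = 0.0692) or 24 h 2 (0.0636).

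COL8A1 encodes the α1 chain of type VIII collagen. Its 3 probe sets above the controls were all higher in P2 untreated cells than in P0 cells. Ssc.16132.2.S1_at read 12.80, 12.85 and 12.38 in untreated cells, against 10.90, 11.31 and 11.32 in P0 cells. Ssc.16132.1.S1_at read 7.80, 7.73 and 8.45 in untreated cells, against 5.97, 6.10 and 6.22. Ssc.16132.2.A1_at read 5.81, 6.56 and 5.77 in untreated cells, against 5.38, 5.68 and 5.32. In each of the 3, all untreated arrays were above all P0 arrays.

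The log2 fold changes of COL8A1 in untreated over P0 cells were 1.50 ± 0.153 (2.82-fold, adjusted p = 4.44e-06), 1.90 ± 0.304 (3.73-fold, adjusted p = 0.000176) and 0.59 ± 0.214 (1.50-fold, adjusted p = 0.0323) in the same order. The last of these was lost without P0 1 (adjusted p = 0.0866), P0 3 (0.0969) or untreated 2 (0.33, adjusted p = 0.143). At 24 h over P0 the same probe sets were higher by 2.13 (4.37-fold, adjusted p = 2.18e-07), 2.46 (5.50-fold, adjusted p = 1.88e-05) and 0.92 (adjusted p = 0.00256).

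With TGF-β1, 1 COL8A1 probe set rose at 24 h. Ssc.16132.2.S1_at read 13.11, 12.97 and 13.05 at 8 h and 13.38, 13.17 and 13.37 at 24 h, so both treated groups lay above all untreated arrays. At 24 h its log2 fold change was 0.63 ± 0.153 (1.55-fold, adjusted p = 0.0259). The call was lost without untreated 3 (0.48, adjusted p = 0.104), 24 h 1 (0.085) or 24 h 3 (0.0664), and without the 3 P2 arrays numbered 3 (0.45, adjusted p = 0.205). At 8 h the change was 0.37 (adjusted p = 0.237).

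The other COL8A1 probe sets did not pass the test at 24 h. Ssc.16132.1.S1_at read 8.12, 8.32 and 9.24 at 24 h, which overlaps the untreated arrays, and in every P2 group the array numbered 3 was the highest. Its log2 fold change at 24 h was 0.56 ± 0.304 (adjusted p = 0.31), and with the replicate block the adjusted p was 0.0093. Ssc.16132.2.A1_at differed by 0.33 (adjusted p = 0.411; 0.249 with the block). Ssc.16132.1.A1_at stayed between 3.59 and 4.37, inside the control range, in all 12 arrays. It passed the filter only through its treated arrays and was called at 24 h over P0 (adjusted p = 0.0114), with no fold given.

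COL15A1 encodes the chain of type XV collagen. Its probe set Ssc.19883.1.S1_at read 12.29, 12.15 and 12.54 in untreated cells, against 13.09, 13.24 and 12.84 in P0 cells. The groups did not overlap, and the log2 fold change was -0.73 ± 0.146, or 1.66-fold lower (adjusted p = 0.000949). With TGF-β1 it read 12.30, 12.13 and 12.49 at 8 h and 12.26, 12.10 and 12.33 at 24 h, and in all 3 P2 groups the array numbered 3 was highest and the array numbered 2 lowest.

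No change of COL15A1 with TGF-β1 was found. The difference from untreated cells was -0.02 at 8 h (95% interval -0.34 to 0.30, adjusted p = 0.977) and -0.10 at 24 h (95% interval -0.42 to 0.22, adjusted p = 0.772). At 24 h it was 1.77-fold lower than in P0 cells (-0.83, adjusted p = 0.000344).

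**Figure D3:**
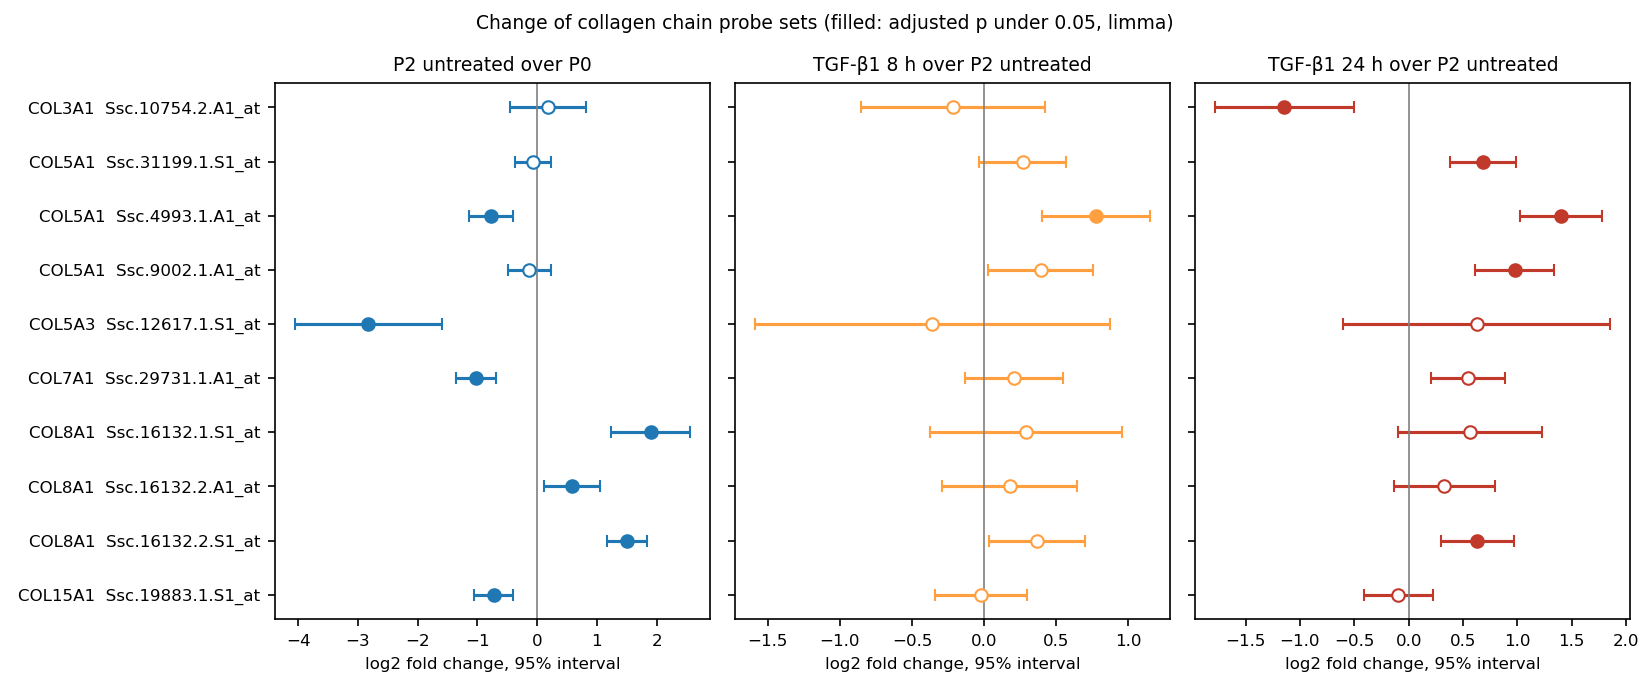
Log2 fold change (horizontal axis, range set for each panel) of the 10 collagen chain probe sets above the controls for untreated over P0, 8 h over untreated and 24 h over untreated cells, from left to right. Points are limma estimates with 95% intervals (n = 3 arrays a group), filled at an adjusted p under 0.05. COL5A1 lies above 0 at 24 h by 0.68 to 1.40, COL8A1 lies above 0 in culture by 0.59 to 1.90, and COL5A3 lies lowest in culture at -2.82.

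Between 24 h and 8 h of TGF-β1 none of the 10 brighter probe sets or of the dim ones was called by limma, where 0.232% of all tested probe sets were, 0.142% as higher and 0.0907% as lower. The groups did not overlap in 5 of the 10 (13.7% of all). An unadjusted p under 0.05 was reached by 5 of the 10, but the share of all tested probe sets at that level was not counted. With the replicate number as a block 2 probe sets were called, those of COL3A1 and COL5A3 described above. The first was lower and the second higher at 24 h. That block also raised the count over all tested probe sets, given in the last section.

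The order of the group means differed between the genes. Mean levels in P0, untreated, 8 h and 24 h cells were 9.83, 7.01, 6.65 and 7.63 for COL5A3, and those of its 3 P2 groups overlap. They were 11.18, 12.68, 13.04 and 13.31 for COL8A1 (Ssc.16132.2.S1_at), where neighbouring P2 groups did not differ by the test. They were 13.06, 12.33, 12.31 and 12.23 for COL15A1, whose P2 groups overlap. For COL7A1 they were 5.17, 4.15, 4.35 and 4.70, for COL3A1 they were 5.75, 5.93, 5.72 and 4.79, and for COL5A1 (Ssc.9002.1.A1_at) they were 12.58, 12.45, 12.84 and 13.42. The highest mean was at 24 h for COL5A1 and COL8A1, in P0 cells for COL5A3, COL7A1 and COL15A1, and in untreated cells for COL3A1. For COL3A1 and this COL5A1 probe set the P0, untreated and 8 h arrays overlap, so the order of those groups is not settled. For COL7A1 the 8 h arrays overlap both the untreated and the 24 h arrays.

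Of 38 other collagen chain genes listed, 9 had a probe set with a single symbol and 8 of these were tested. None was called at 24 h over untreated by limma (2 at an unadjusted p under 0.05) or at 8 h over untreated (0 at an unadjusted p under 0.05). Of all tested probe sets 8.49% and 5.07% were called, and the shares at an unadjusted p were not counted. COL5A2, the α2 chain that pairs with COL5A1 in type V collagen, averaged 8.52 at 24 h and 8.11 in untreated cells, a difference of 0.41 ± 0.153 (adjusted p = 0.132). COL1A2, the α2 chain of type I collagen, differed by 0.38 ± 0.169 on its brighter probe set (adjusted p = 0.201; 0.0258 with the replicate block) and by 0.40 on the other (adjusted p = 0.313). The median log2 fold change of these 8 genes at 24 h was 0.08, against 0.01 over all tested probe sets.

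Between P2 untreated and P0 cells, 3 of the 8 other chains were higher and 1 was lower, where 59.4% of all tested probe sets were called. Fits that left out 1 array called 1 to 3 of the 8, and without the 3 P2 arrays numbered 3 there was 1 higher and none lower. COL5A2 rose by 1.11 ± 0.153 (adjusted p = 5.39e-05), so that this type V chain was higher while COL5A3 was lower. COL1A2 was lower on its brighter probe set (-0.44, adjusted p = 0.0412) but higher on the other (2.23 ± 0.218, adjusted p = 3.05e-06), so its direction is uncertain. COL2A1, the cartilage fibril chain, rose by 0.29 (adjusted p = 0.0383), a call kept in only 1 of the 6 fits that leave out an array (adjusted p up to 0.108). COL11A1 was called at levels inside the control range.

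Genes that fold, process and cross-link collagen were measured for 17 of 40 listed. At 24 h over untreated 6 rose and none fell (8.49% of all tested probe sets were called), and the median log2 fold change was 0.47, against 0.01 over all tested probe sets. PCOLCE2, an enhancer of procollagen C-proteinase, rose by 1.44 (adjusted p = 0.00033). FKBP14, a prolyl isomerase of the endoplasmic reticulum, rose by 0.92 (adjusted p = 0.00399), and SEC23A, a coat protein of vesicles leaving the endoplasmic reticulum, by 0.72 (adjusted p = 0.00322). LOX, the lysyl oxidase that cross-links collagen, rose by 0.60 (adjusted p = 0.0394), a call kept only in the fit without 24 h 3 among the 6 that leave out an array (adjusted p up to 0.154).

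At 8 h over untreated 4 of these 17 rose and none fell (5.07% of all called). Among the 4 was MIA2, which helps load procollagen into vesicles (0.75, adjusted p = 0.00468), a call kept in all 6 fits that leave out an array. Those fits called only 1 to 2 of the 17 at 8 h over untreated, and 3 to 6 at 24 h over untreated. With the replicate block 12 were called at 24 h and 7 at 8 h. That block also raised the counts over all tested probe sets, given in the last section. Without the 3 P2 arrays numbered 3 there were 3 at 24 h and 1 at 8 h. Over all 17638 tested probe sets that fit called 762 at 24 h and 265 at 8 h. In untreated over P0 cells 5 of the 17 rose and 2 fell, a smaller share than the 59.4% called over all tested probe sets. LOXL4, a lysyl oxidase relative, rose by 4.66 ± 0.241, and PCOLCE2 fell by 2.35 on the log2 scale.

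Genes that bind collagen or organise fibrils were measured for 14 of 19 listed, and 5 rose at 24 h over untreated with none falling (8.49% of all called). ASPN, a small leucine-rich proteoglycan that binds collagen, rose by 1.71 (adjusted p = 0.000314), and THBS2, a matricellular thrombospondin, by 0.91 (adjusted p = 0.0148). The THBS2 call was lost without untreated 1 or 24 h 1 (adjusted p up to 0.0626). Without the 3 P2 arrays numbered 3, 3 of the 14 were called. In untreated over P0 cells 12 of the 14 fell and 2 rose (59.4% of all called), with a median of -1.43. COMP, which assists fibril assembly, changed by -7.88 ± 0.882, TNXB, a tenascin that spaces fibrils, by -5.13, and DPT, dermatopontin, by -4.11.

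Of 4 collagen receptors tested at 24 h over untreated, 1 fell (8.49% of all tested probe sets were called). It was the adhesion receptor ADGRG1, at least 1.78-fold lower (adjusted p = 0.00672), which has type III collagen as a known ligand in mouse brain. ITGA2, an integrin chain that binds collagen, missed the threshold there (1.19, adjusted p = 0.0683; 0.000737 with the replicate block), with a bound of at least 1.54-fold higher. Of 11 genes of collagen breakdown tested, proteases and TIMP inhibitors together, 1 rose at 24 h over untreated (8.49% of all called). It was the cell-surface protease FAP (1.15, adjusted p = 0.0077, or 0.0862 without the 3 P2 arrays numbered 3). With the replicate block 3 others were lower at 24 h: TIMP3 (-0.77, adjusted p = 0.0028 against 0.478 without it), CTSB (-0.29, 0.0397 against 0.2) and TIMP2 (-0.31, 0.0446 against 0.222). In untreated over P0 cells 2 of the 11 rose and 3 fell (59.4% of all called). Those that rose were MMP1 and the inhibitor TIMP1, and those that fell included MMP2 and the inhibitor TIMP3. The counts of this list thus give no single direction of breakdown. MMP1, interstitial collagenase, was at least 16.1-fold higher, and TIMP3, an inhibitor of metalloproteinases, fell by 3.48 on the log2 scale.

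**Figure D4:**
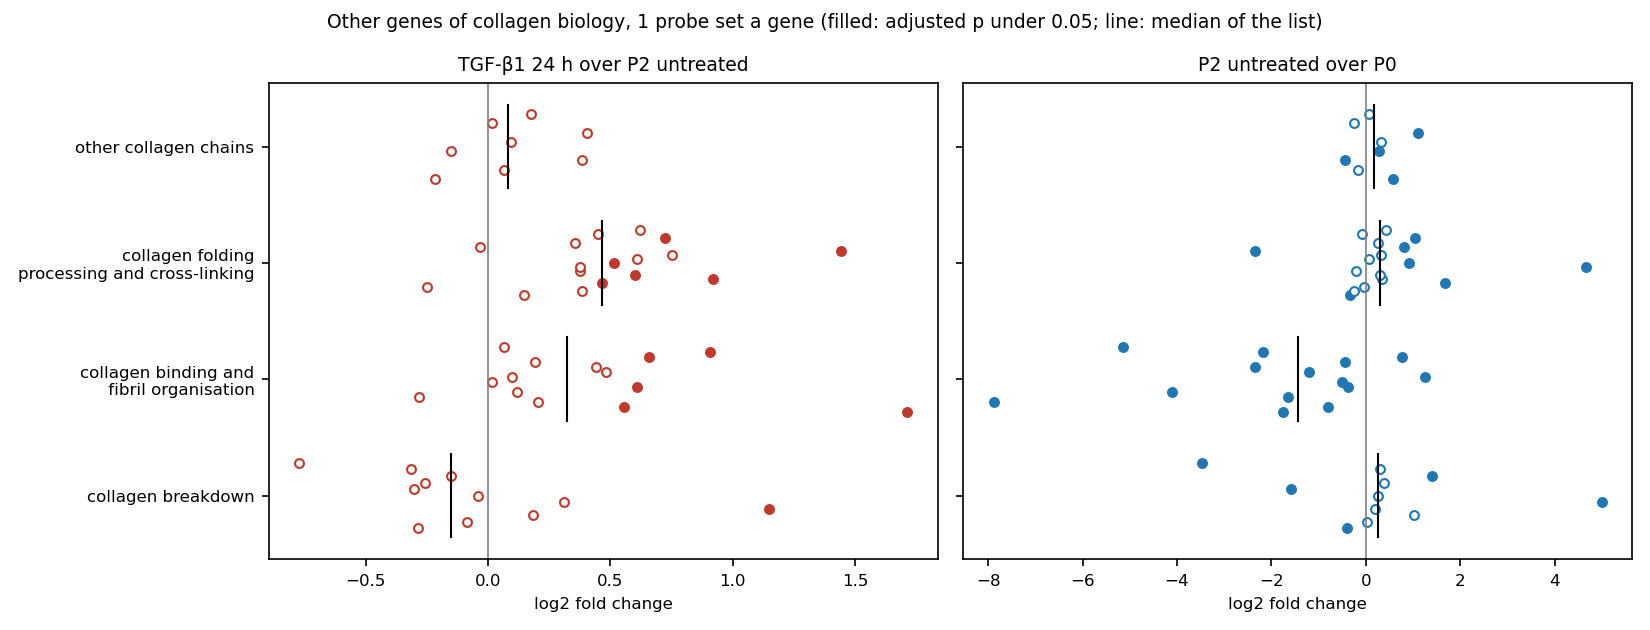
Log2 fold change (horizontal axis) of each measured gene in 4 lists of collagen-related genes, for 24 h over untreated cells (left) and untreated over P0 cells (right). Each point is 1 gene, filled at an adjusted p under 0.05, and the line is the list's median. At 24 h called genes of the folding and binding lists lie above 0, and in culture 12 of 14 binding genes are called below 0.

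The genes whose pattern lay nearest to each collagen were found by the root mean square difference of mean-centred log2 values over the 12 arrays, among 6013 other genes. For COL8A1 the nearest was FKBP10, a collagen chaperone of the endoplasmic reticulum, at 0.123 log2 units, followed by GAPVD1 (0.142) and TSTA3 (0.154). For COL7A1 they were BGN (0.147), JMJD6 (0.177) and GLT8D1 (0.181). For COL5A1 they were CDC42EP5 (0.201), ST3GAL1 (0.202) and LIG3 (0.208).

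For COL15A1 the nearest genes were ASAP3 (0.0917), MKRN1 (0.0997) and MT3 (0.109). For COL3A1 they were SLC2A12 (0.290), SPECC1L (0.319) and ADSSL1 (0.323), and for COL5A3 they were ABCA1 (0.507), PROS1 (0.520) and TCN2 (0.525). The distance is smaller for genes that vary little, so it ranks neighbours within 1 collagen and is not set between collagens. P2 arrays with the same replicate number deviate together, so the 12 points are not independent.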

How the data were processed

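Gene expression in 12 samples was measured on Affymetrix porcine 3' arrays. The deposited table gives log2 expression, which the authors made with GCRMA, per the submitters' processing notes. No version, scan date or batch is given in the sources used. GCRMA corrects each probe set for background, and values near the controls carry little information on level. The deposited values entered the tests unchanged.

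Genes were named through the platform annotation: of 23935 probe sets other than controls, 10069 had 1 symbol, 198 several and 13668 none. Probe sets over log2 4 in at least 3 arrays were tested (17638, of which 8466 had 1 symbol). limma 3.58.1 in R 4.3.3 (lmFit, eBayes, two-sided) was run on the 12 arrays with a mean for each of 4 groups, 8 residual and 3.745 prior degrees of freedom. The standard errors had a median of 0.159 on the log2 scale, and the number of arrays limits the precision. Within-group correlations between arrays ran from 0.982 to 0.994.

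All probe sets of the 6 genes are named. A listed gene is represented by its probe set with the highest mean over all arrays, and up to 4 called genes with the largest change are named per list and comparison, or the 2 with the smallest p where none was called. The members and lists were chosen with earlier results of these data known. Replicate numbers come from the sample titles. After subtraction of group means, correlations between P2 groups were 0.348 to 0.679 for arrays of the same number (9 pairs) and -0.513 to 0.0796 for others. For P0 with P2 arrays of the same number they were -0.0916 to 0.0158, so a shared deviation by number was seen among P2 arrays only. These values cannot show whether P0 and P2 cells of the same number came from the same source. Alternatives were no filter, a filter at log2 6, median centring, quantile normalization, the replicate block, a trended prior, fits of 2 groups alone, and leaving out each array. Leaving out the 3 P2 arrays numbered 3 was chosen after seeing the data. The fit was tested on simulated data with independent noise in every array. That simulation left out the shared deviation of P2 arrays with the same number, so it does not cover it.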

Additional observations from a re-analysis of the deposited data

Results flagged for a closer look

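The effect of TGF-β1 on COL3A1 (Ssc.10754.2.A1_at) differed between 24 h and 8 h by -0.93 on the log2 scale, past the threshold in the fit of the P2 arrays with the replicate number as a block (limma adjusted p = 0.0213) and not without it (0.322). The 24 h arrays read 4.31, 4.74 and 5.31 and the 8 h arrays 5.57, 5.57 and 6.01, and within each number the 24 h array was lower.

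For COL5A3 (Ssc.12617.1.S1_at) the same difference was 0.99, with an adjusted p of 0.0217 with the block and 0.653 without it. The 24 h arrays read 8.29, 8.20 and 6.42 and the 8 h arrays 6.96, 7.45 and 5.53, and within each number the 24 h array was higher. Without the 3 P2 arrays numbered 3 it was 1.04 (adjusted p = 0.0996).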

How the results depend on the processing

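The number of arrays and the dimness of probe sets near the controls limit what these values can show. Collagen chain counts in this paragraph are over all 15 tested probe sets of the chosen genes, dim ones included. On that base the fit without any alternative called 1 at 8 h and 6 at 24 h over untreated. The 6 include COL5A1 Ssc.16329.1.S1_at, whose means both lay below the control level. With the replicate number as a block within P2, all probe sets called were 2200 at 8 h over untreated (894 without it), 3519 at 24 h over untreated (1498) and 430 at 24 h over 8 h (41), and 2 collagen chain probe sets were called at 24 h over 8 h (0). The block changed no call of a collagen chain probe set other than those given beside its result. A block over all 12 arrays gave 109 calls, 1 of them a collagen chain, at 24 h over 8 h, where no filter gave 25 and a trended prior 63. With only the 2 groups compared in the fit there were 519 calls at 8 h over untreated (collagen chains 0), 631 at 24 h over untreated (collagen chains 2) and 0 at 24 h over 8 h. Leaving out 1 array gave 364 to 702 calls at 8 h (collagen chains 0 to 1), 800 to 1347 at 24 h (collagen chains 3 to 6) and 4 to 44 at 24 h over 8 h. Without the 3 P2 arrays numbered 3 the counts were 265 at 8 h (collagen chains 0), 762 at 24 h (collagen chains 3) and 12 at 24 h over 8 h. The cause of these shifts was not tested. The counts of all probe sets and of collagen chain probe sets called against P0 stayed within 1.5 times under every alternative run. In untreated over P0 cells the counts of other collagen chains and of endothelial markers did not, as given beside them, nor did that of breakdown genes, with 5 higher and 3 lower under a block over all 12 arrays, and 2 higher and 3 lower without it.

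Changes of direction came only in log2 differences that were not called. Median centring turned COL15A1 at 8 h over untreated to 0.012. Ranges on leaving out arrays crossed 0 for COL3A1 (-0.056 to 0.40), COL5A1 Ssc.31199.1.S1_at (-0.16 to 0.041) and Ssc.9002.1.A1_at (-0.30 to 0.0015) in untreated over P0 cells. They did so at 8 h over untreated for COL3A1 (-0.38 to 0.0247), COL5A3 (-0.80 to 0.20) and COL15A1 (-0.11 to 0.0878), and at 24 h over untreated for COL15A1 (-0.19 to 0.011). At 24 h over 8 h they did so for COL8A1 Ssc.16132.1.S1_at (-0.0683 to 0.54) and COL15A1 (-0.16 to 0.0143). Of 777 values of single probe sets under the alternatives, 713 kept their direction and their side of the threshold.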
